A study of Mus musculus with 17 samples.

Results

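Germline and piRNA pathway genes were followed in mouse embryonic stem (ES) cells: Ddx4, Piwil2, Mael, Tdrd5, Stk31, Dazl, Sycp3, Dppa3 and Tex101. They were chosen by name and not by a rule on measured values, though with earlier results of these data known. They are 9 of the 53693 genes in the summed table. All 9 were expressed above the filter on low counts, which kept 19819 genes for testing. The libraries come from 5 sublines of MC1 ES cells, a 129S6/SvEvTac line, called iFoxA1, iFoxC1, iFoxG1, iFoxL2 and iFoxP3. In each subline the open reading frame of 1 forkhead transcription factor, tagged at its C terminus with His6-FLAG, sits with a puromycin resistance gene at Rosa26 and is silenced by doxycycline (Dox). At 0 h the cells were in ES medium with Dox, puromycin, leukemia inhibitory factor and 15% serum. At 24 h Dox had been washed out and the cells were in a differentiation medium with 10% serum. iFoxA1 has 2 libraries at 0 h and 3 at 24 h, and each other subline has 1 and 2, so that the 17 libraries fall into 6 at 0 h and 11 at 24 h. All groups carry a transgene and no subline without one is among the samples. The effects of the factor, of Dox withdrawal and of the medium on a change from 0 h to 24 h therefore cannot be told apart. A difference between sublines can come from the factor or from anything else in which the sublines differ. The labels do not say that the libraries of a group came from separate cultures, so the p-values given rest on a spread among libraries that may be technical.

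In the germline, PIWI proteins bind small piRNAs that guide the silencing of transposable elements, both by cutting their transcripts and by directing DNA methylation to their promoters. The work is done in cytoplasmic granules (nuage) that hold RNA helicases such as DDX4 (also called VASA) and proteins with Tudor domains. Many germline genes are held silent in somatic cells, and partly in ES cells, by DNA methylation of their CpG-rich promoters and by a Polycomb complex that contains E2F6, MGA and MAX. MGA with MAX binds the E-box, and E2F6 an E2F-type site.

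These 2 motifs were looked for in the promoters, to see which members share them. RefSeq's promoter table (build GRCm38.p6) matched 7 of the 9 genes, and the 250 bases before each start were searched on both strands for the E-box CACGTG and for the E2F-type site GGCGGGA, or TCCCGCC on the other strand. The E-box lay in the windows of Ddx4, Mael, Stk31 and Sycp3, and the E2F-type site in those of Ddx4 and Mael. Among all 32851 windows of that length, 6.02% held the E-box, 9.75% the E2F-type site and 0.868% both. The stretches with matches are given 5′ to 3′ on the gene's strand, with the matched motifs in capitals. They hold the part of each window that lies outside GENCODE's exons. For Ddx4 only 30 bases around each match are given, because both matches lie in the first exon of the GENCODE model.
Mael, chr1:166238748-166238994, minus strand: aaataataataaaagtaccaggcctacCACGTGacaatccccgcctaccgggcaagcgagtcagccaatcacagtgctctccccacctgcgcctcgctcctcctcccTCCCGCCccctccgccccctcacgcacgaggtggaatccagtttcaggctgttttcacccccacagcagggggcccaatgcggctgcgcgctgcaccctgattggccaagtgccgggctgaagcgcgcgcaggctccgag
Sycp3, chr10:88459337-88459568, plus strand: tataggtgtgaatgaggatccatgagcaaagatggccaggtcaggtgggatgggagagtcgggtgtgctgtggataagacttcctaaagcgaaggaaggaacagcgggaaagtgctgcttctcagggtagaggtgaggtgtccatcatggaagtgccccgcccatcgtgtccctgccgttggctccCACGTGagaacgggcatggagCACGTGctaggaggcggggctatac
Stk31, chr6:49395289-49395538, plus strand: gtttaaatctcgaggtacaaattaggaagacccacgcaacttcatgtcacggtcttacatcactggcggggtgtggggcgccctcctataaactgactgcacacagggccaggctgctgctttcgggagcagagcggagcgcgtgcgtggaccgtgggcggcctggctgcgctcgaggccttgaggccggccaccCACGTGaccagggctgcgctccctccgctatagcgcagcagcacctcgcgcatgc
Ddx4 E-box, chr13:112652322-112652351, minus strand: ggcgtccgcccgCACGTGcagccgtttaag
Ddx4 E2F-type site, chr13:112652430-112652459, minus strand: gtccgtccatggGGCGGGAagtcgcgcgcc
Sycp3 held 2 E-boxes, which start 64 and 43 bases before the annotated start. The Mael E-box starts 223 bases before the start, that of Stk31 55 (120 before another start that RefSeq lists for it) and that of Ddx4 29. No match was found in the windows of Tdrd5, Dazl and Tex101. A match is a run of letters and says nothing on whether a factor was bound in these cells.

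**Figure D1:**
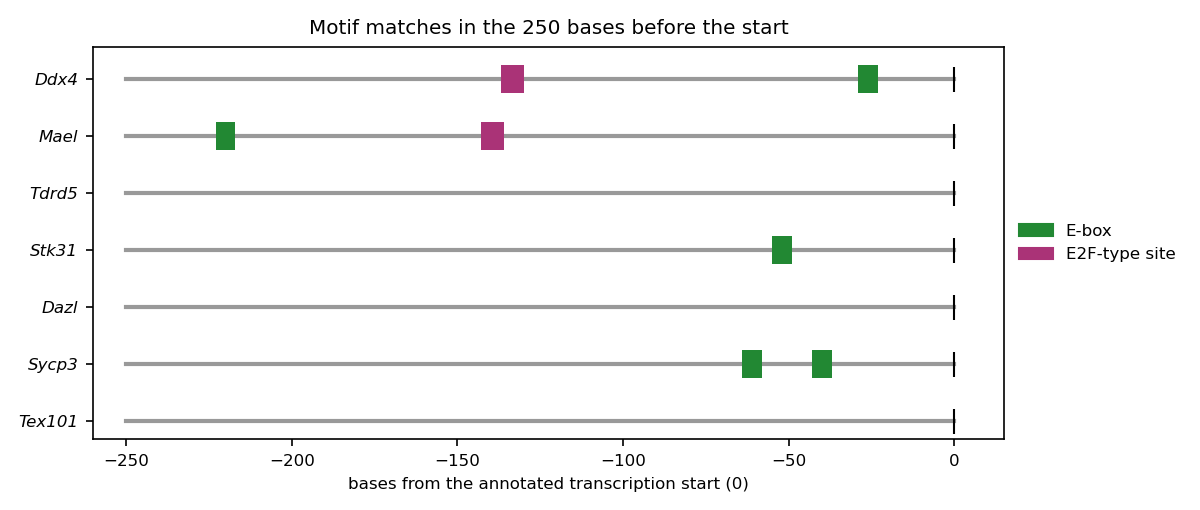
Matches to the E-box (green) and the E2F-type site (purple) in the 250 bases before the RefSeq start of the 7 members found in the promoter table; the x axis is the distance in bases from the start, at 0. Ddx4 and Mael hold both motifs, Stk31 1 E-box and Sycp3 2.

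Library totals were 17.7 to 22.2 M estimated counts in 12 libraries and 32.9 to 37.2 M in the other 5, which are iFoxA1 replicate 3 and replicate 2 of the other sublines, all at 24 h, and are called the second library set here. The transgenes of 4 sublines were read at 0.485 to 1.59 TPM (an abundance scaled to transcript length) at 0 h. At 24 h they reached 21.8 to 184 TPM, except that Foxl2 was at 2.85 TPM in iFoxL2 replicate 2. That library and iFoxA1 replicate 3, where Foxa1 was lowest of the 3 at 21.8 TPM, also stand apart in the summed level of 12 naive pluripotency genes. It was 2485 and 3028 CPM (counts per scaled library total, not corrected for gene length) in these 2, against 623 to 1456 in the 9 other libraries at 24 h and 2881 to 3383 at 0 h. The 6 ES cell markers (Pou5f1, Sox2 and others) summed to 1591 to 3286 CPM in all libraries.

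On the scale per length, the members were low to moderate transcripts at 0 h. Dazl was highest, with a mean of 43.2 ± 22.5 TPM (SD, n = 6), followed by Dppa3 at 21.9 ± 19.7, Stk31 at 19.2 ± 7.98, Sycp3 at 12.6 ± 3.49 and Mael at 8.91 ± 1.23 TPM. Piwil2 (4.72 ± 2.01 TPM) and Ddx4 (3.85 ± 0.61) came next, and Tex101 (0.889 ± 0.268) and Tdrd5 (0.365 ± 0.189) were the lowest. Neighbours in this order overlapped in their ranges over the 6 libraries, Dazl included, which spanned 19.2 to 71.2 TPM against 5.94 to 56.1 for Dppa3; the exception was Ddx4, whose lowest value of 2.93 TPM lay above the highest of Tex101, 1.25. Estimated counts per library were at least 67 for 7 members but only 9 to 209 for Tdrd5 and 9 to 253 for Tex101, so the values of these 2 carry the widest counting error.

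From 0 h to 24 h, averaged over the 5 sublines, 5 of the 9 members rose (Ddx4, Piwil2, Mael, Tdrd5 and Tex101) and 2 fell (Stk31 and Sycp3), by edgeR's quasi-likelihood test with a Benjamini-Hochberg adjusted p under 0.05. Of all 19819 genes, 37.8% passed in this comparison, 21.7% upward and 16.1% downward. The median log2 change of the members was 0.85, against 0.04 over all genes tested. Within single sublines, 13 of the 45 tests of members passed, against 7.27% of all gene and subline pairs. In the 4 sublines other than iFoxA1, which hold 12 of these 13 calls, the 0 h side is 1 library that was assumed to vary like the other groups. A deviation of that library and a change in its subline cannot be told apart. By subline, iFoxA1 had 10.8% of all genes called, iFoxC1 9.7%, iFoxP3 6.04%, iFoxG1 5.63% and iFoxL2 4.24%. Changes are log2 values ± standard error (SE) unless given as folds, and all adjusted p-values come from this test.

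**Figure D2:**
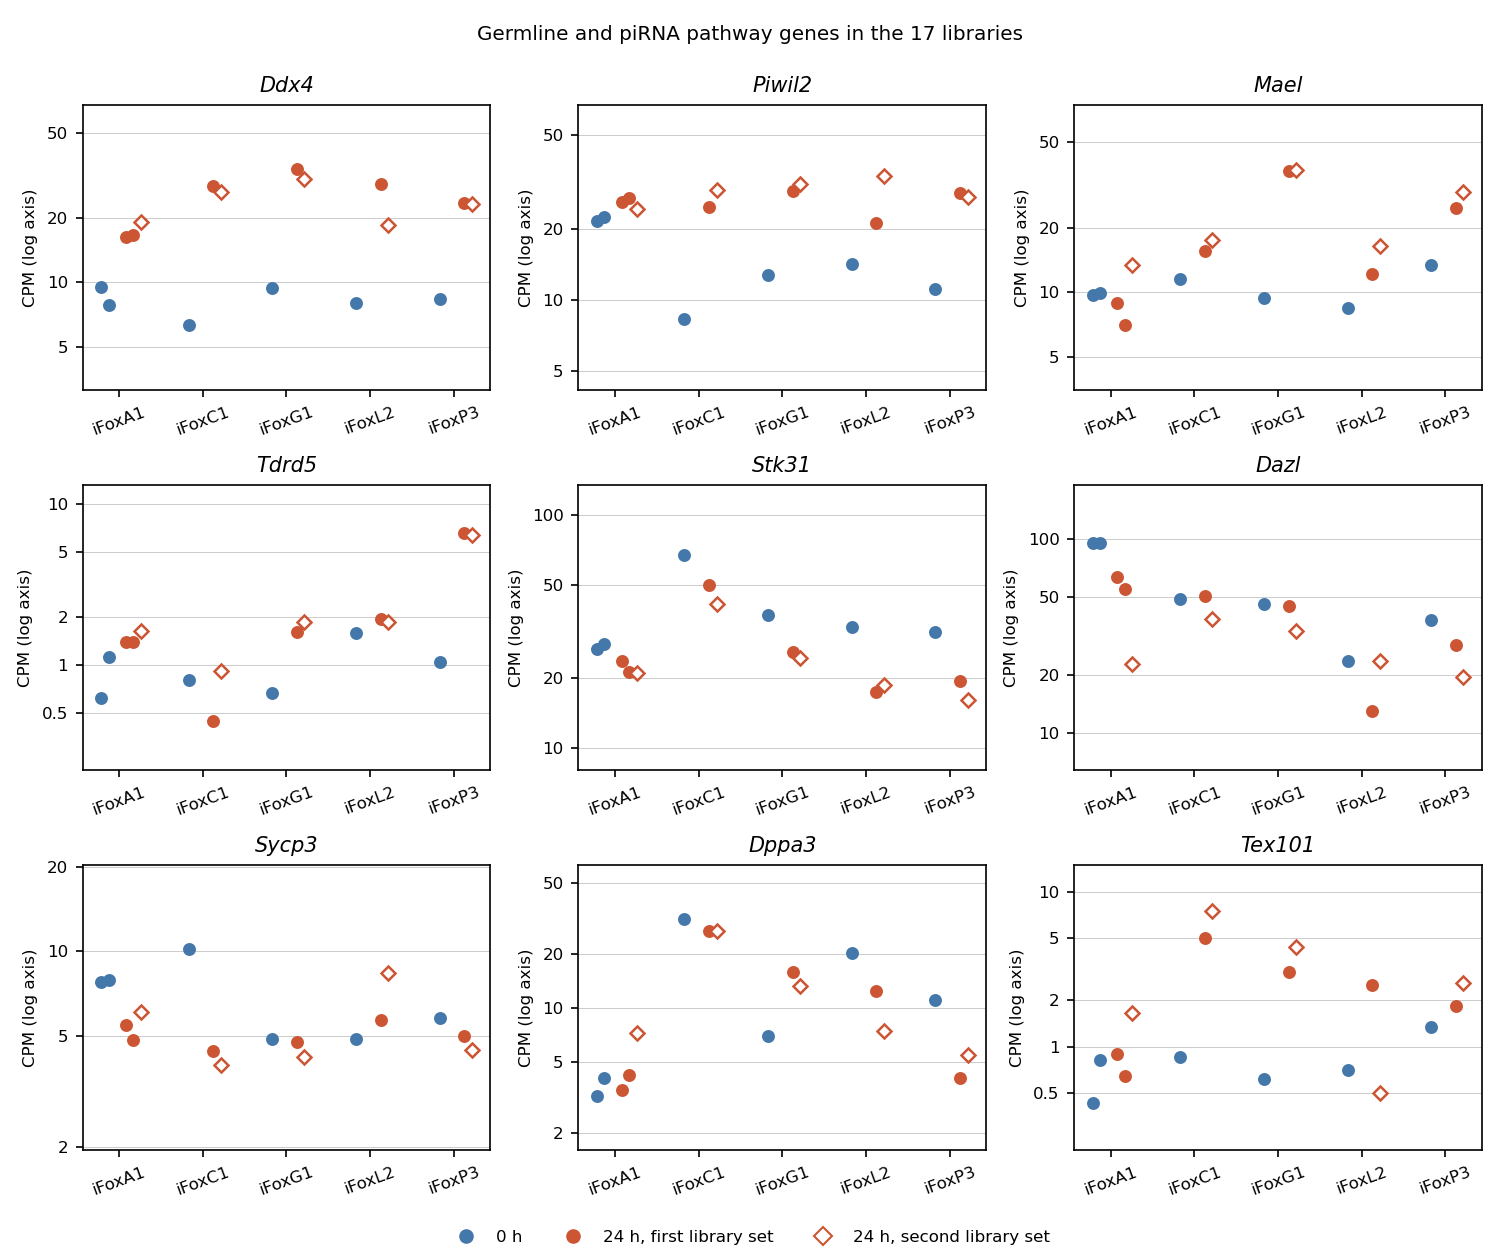
Level of each member in every library, in CPM on a log axis, by subline, with 0 h in blue and 24 h in red (filled circles, first library set; open diamonds, second set). Every 24 h value of Ddx4 lies above every 0 h value, Tdrd5 at 24 h is highest in iFoxP3 and Mael in iFoxG1, and Stk31 and Dppa3 are highest in iFoxC1 at both times.

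**Figure D3:**
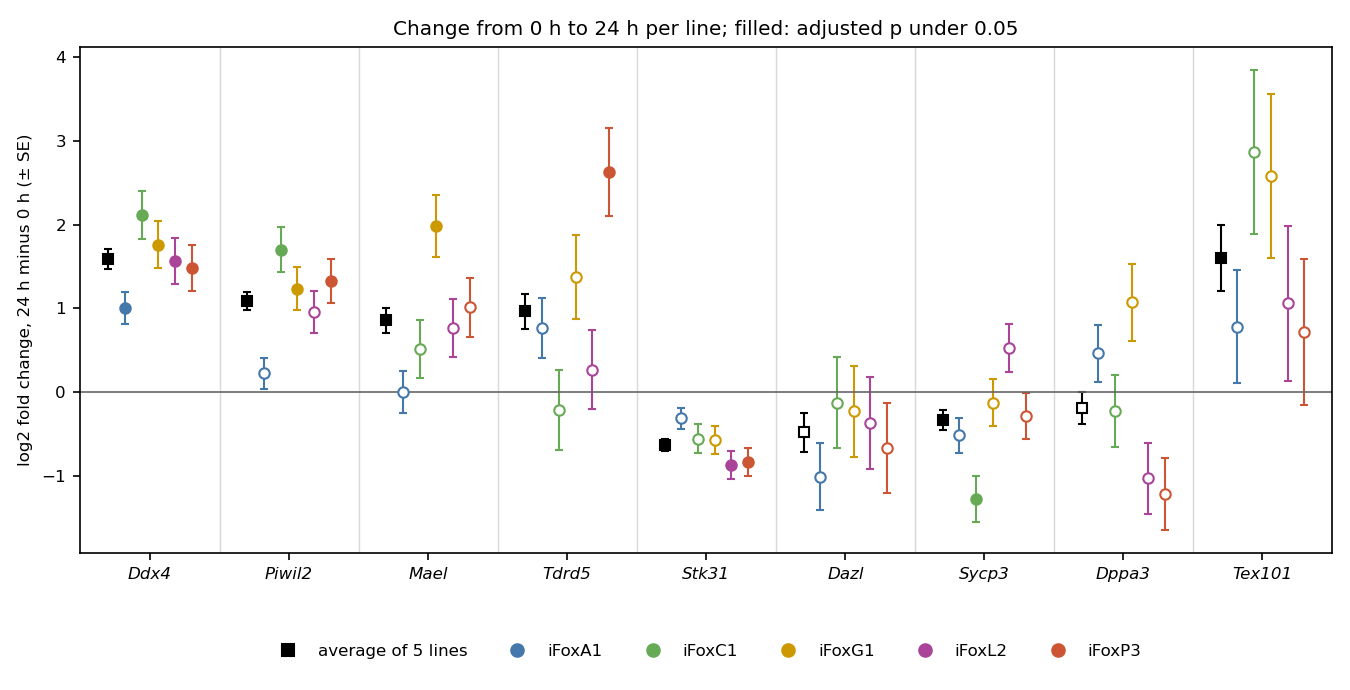
Log2 change from 0 h to 24 h (y axis, ± SE) of each member, as the average of the 5 sublines (squares) and in each subline (circles), with filled symbols for an adjusted p under 0.05. Ddx4 is filled in all 5 sublines, while Dazl is filled in none, and the values of Sycp3 and Dppa3 lie on both sides of 0.

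Ddx4 (ENSMUSG00000021758.14, chr13:112598333-112652475, minus strand), the helicase of the nuage and a classical germ cell marker, rose in every subline. At 0 h it stood at 9.52 and 7.84 CPM in iFoxA1, 9.46 in iFoxG1, 8.39 in iFoxP3, 8.01 in iFoxL2 and 6.30 in iFoxC1. After 24 h the values were 33.8 and 30.4 CPM in iFoxG1, 28.2 and 26.5 in iFoxC1, 28.8 and 18.6 in iFoxL2, 23.6 and 23.3 in iFoxP3, and 16.4, 16.7 and 19.2 in iFoxA1. All 11 libraries at 24 h were above all 6 at 0 h, a pattern that 4.79% of the genes tested showed upward. The average change was 1.59 ± 0.12, or 3.00-fold (adjusted p = 1.77e-05). The change within a subline was smallest in iFoxA1 at 1.00 ± 0.20 (adjusted p = 0.0115) and largest in iFoxC1 at 2.12 ± 0.28 (adjusted p = 0.00325), with 1.76 in iFoxG1, 1.56 in iFoxL2 and 1.48 in iFoxP3. Ddx4 was the only member called within all 5 sublines, as were 1.05% of all genes. The call in iFoxA1 was lost without either of its 0 h libraries (adjusted p = 0.0661 without replicate 1 and 0.142 without replicate 2), and that in iFoxP3 without either 24 h library (0.0658 and 0.0641). In limma on log2(TPM + 0.1) the average change of Ddx4 passed (1.54, adjusted p = 0.00130) but none of its 5 changes within a subline did, with adjusted p-values of 0.0790 in iFoxC1, 0.122 in iFoxG1, 0.145 in iFoxP3, 0.276 in iFoxL2 and 0.297 in iFoxA1.

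Piwil2 (ENSMUSG00000033644.5, chr14:70372477-70429383, minus strand) encodes the PIWI protein MILI, which binds piRNAs in early male germ cells. Its levels at 0 h were 21.7 and 22.4 CPM in iFoxA1, 14.1 in iFoxL2, 12.7 in iFoxG1, 11.1 in iFoxP3 and 8.29 in iFoxC1. After 24 h they lay closer together, at 29.0 and 31.0 CPM in iFoxG1, 28.3 and 27.4 in iFoxP3, 21.2 and 33.5 in iFoxL2, 24.7 and 29.2 in iFoxC1, and 26.0, 26.9 and 24.1 in iFoxA1. In CPM, the 24 h libraries of each subline were above its own 0 h level. In TPM, iFoxA1 replicate 3 at 24 h (5.11) lay below both 0 h libraries of iFoxA1 (6.98 and 7.47). Piwil2 rose by 1.09 ± 0.11 on average, or 2.13-fold (adjusted p = 9.34e-05). It rose within iFoxC1 by 1.70 ± 0.27, in iFoxP3 by 1.32 ± 0.26 and in iFoxG1 by 1.24 ± 0.26, but its changes of 0.96 ± 0.25 in iFoxL2 and 0.22 ± 0.18 in iFoxA1 did not pass. The test of a difference among the 5 changes did not pass either (adjusted p = 0.145), but passed on leaving out either 24 h library of iFoxL2. Leaving out its replicate 1 also gave the most genes of all called in this test. Being above the 0 h level in CPM in all 5 sublines was shared with 9.69% of all genes. The iFoxG1 call was lost on leaving out either 0 h library of iFoxA1 (adjusted p = 0.0569 and 0.0572) or either 24 h library of iFoxG1 (0.0764 and 0.121), and the iFoxP3 call without either 24 h library (0.0793 and 0.0777). On leaving out 1 library, the change of Piwil2 in iFoxL2 ranged from 0.60 to 1.25. The value of 1.25 came without iFoxL2 replicate 1 at 24 h. That run leaves only replicate 2, a library that stands apart, on the 24 h side.

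Mael (ENSMUSG00000040629.8, chr1:166201201-166238747, minus strand) encodes maelstrom, a nuage protein needed for piRNA-dependent silencing of retrotransposons. It was even at 0 h, with 13.4 CPM in iFoxP3, 11.6 in iFoxC1, 9.71 and 9.97 in iFoxA1, 9.40 in iFoxG1 and 8.44 in iFoxL2. After 24 h it was 36.9 and 37.3 CPM in iFoxG1, 24.6 and 29.3 in iFoxP3, 15.6 and 17.5 in iFoxC1, 12.1 and 16.5 in iFoxL2, and 8.93, 7.04 and 13.4 in iFoxA1. The 2 iFoxG1 libraries were thus the highest, while in CPM the iFoxA1 libraries spanned their own 0 h level. In TPM the iFoxA1 libraries at 24 h (8.81, 6.95 and 9.10) lay below both of its 0 h libraries (9.14 and 9.67). The average change was 0.85 ± 0.15 (adjusted p = 0.00202), or 0.56 without the iFoxG1 library at 0 h, which leaves iFoxG1 out of it (adjusted p = 0.0260). Within sublines only iFoxG1 passed, with a change of 1.98 ± 0.37, or 3.94-fold (adjusted p = 0.0171); it was lost without either 24 h library of iFoxG1 (adjusted p = 0.0603 and 0.0749). Without iFoxA1 replicate 3 at 24 h, a library that stands apart, the change in iFoxP3 passed as well (1.01, adjusted p = 0.0316). In iFoxA1 the fitted change was -0.00156 ± 0.25, and its sign depended on the setting.

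Tdrd5 (ENSMUSG00000060985.15, chr1:156255296-156303664, minus strand), a Tudor domain protein of the nuage in male germ cells, stood out in iFoxP3. Its 0 h values were 1.57 CPM in iFoxL2, 1.04 in iFoxP3, 0.622 and 1.11 in iFoxA1, 0.806 in iFoxC1 and 0.668 in iFoxG1. After 24 h it was 6.58 and 6.38 CPM in iFoxP3, against 1.93 and 1.85 in iFoxL2, 1.61 and 1.86 in iFoxG1, 1.39, 1.4 and 1.63 in iFoxA1, and 0.446 and 0.914 in iFoxC1. The iFoxP3 values were the highest of the sublines at that time, and the iFoxC1 values the lowest. The change within iFoxP3 was 2.63 ± 0.52, or 6.19-fold (adjusted p = 0.0221), from 21 estimated counts at 0 h to 136 and 209 at 24 h. This call was lost without either 24 h library (adjusted p = 0.0785 and 0.0791). The average change of 0.96 ± 0.21 (adjusted p = 0.00598) was lost without the iFoxP3 library at 0 h, which leaves iFoxP3 out of the average (0.54, adjusted p = 0.106).

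Stk31 (ENSMUSG00000023403.14, chr6:49395604-49469501, plus strand), a kinase-like protein with a Tudor domain that is found in the germline, went the other way. At 0 h it was 67.4 CPM in iFoxC1, 37.4 in iFoxG1, 33.1 in iFoxL2, 31.6 in iFoxP3, and 26.7 and 28.0 in iFoxA1. After 24 h it was 50.1 and 41.5 CPM in iFoxC1, 25.8 and 24.4 in iFoxG1, 23.6, 21.2 and 21.0 in iFoxA1, 17.3 and 18.7 in iFoxL2, and 19.3 and 16.1 in iFoxP3. Every 24 h library was below its subline's 0 h level, in all 5 sublines, as for 8.71% of all genes. Stk31 fell by 0.63 ± 0.07 on average, or 1.55-fold (adjusted p = 0.000204). It fell within iFoxL2 (-0.88 ± 0.17, adjusted p = 0.0257) and iFoxP3 (-0.84 ± 0.17, adjusted p = 0.0242), both lost without either 0 h library of iFoxA1 (adjusted p = 0.0588 in iFoxL2 either way, 0.0536 and 0.0537 in iFoxP3). The iFoxL2 call was also lost without iFoxG1 replicate 2 at 24 h (0.0504), and the iFoxP3 call without either of its 24 h libraries (0.0564 and 0.116). In iFoxC1, the change of -0.56 did not pass (adjusted p = 0.0712). It passed on leaving out either 24 h library of iFoxL2, for which no share of all genes is given. The test of a difference among the 5 changes gave an adjusted p of 0.539.

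Dazl (ENSMUSG00000010592.9, chr17:50279395-50293636, minus strand), an RNA-binding protein that licenses germ cells for meiosis and gamete formation, had the highest mean TPM at 0 h. Dppa3 was above Dazl at 0 h in iFoxC1 (56.1 against 37.4 TPM) and iFoxL2 (34.6 against 19.2). In CPM, Dazl at 0 h was 95.1 and 95.3 in iFoxA1, 49.2 in iFoxC1, 46.3 in iFoxG1, 38.1 in iFoxP3 and 23.6 in iFoxL2. At 24 h, iFoxA1 had 63.4, 55.3 and 22.7 CPM, iFoxC1 50.9 and 39.0, iFoxG1 45.3 and 33.7, iFoxP3 28.4 and 19.5, and iFoxL2 12.9 and 23.6. The second-set library was the lower one in iFoxA1, iFoxC1, iFoxG1 and iFoxP3 and the higher one in iFoxL2. The average change of -0.48 ± 0.23 did not pass (adjusted p = 0.128). It passed without the 2 libraries that stand apart (-0.52, adjusted p = 0.00661). In the first library set alone the value was -0.40 (adjusted p = 0.000112), but 8 of the 10 groups of that set hold 1 library, so that its spread rests on iFoxA1 alone. Where the fit held a term for the library set, the value of Dazl for the second set against the first was -0.43 ± 0.25 (adjusted p = 0.233). No member passed for that term, against 26.3% of all genes.

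Sycp3 (ENSMUSG00000020059.9, chr10:88459569-88473236, plus strand), a component of the axis of meiotic chromosomes, fell by 0.34 ± 0.12 on average, at the edge of the threshold (adjusted p = 0.0499). The 0 h values were 10.1 CPM in iFoxC1, 7.75 and 7.89 in iFoxA1, 5.76 in iFoxP3, 4.88 in iFoxG1 and 4.87 in iFoxL2. At 24 h, iFoxL2 had 5.69 and 8.34 CPM, iFoxA1 5.46, 4.84 and 6.09, iFoxP3 4.98 and 4.46, iFoxG1 4.73 and 4.21, and iFoxC1 4.41 and 3.92. In CPM, the 24 h values were above the 0 h value in iFoxL2 and below it in the other 4 sublines. In TPM they lay on both sides of it in iFoxG1 and iFoxP3. Only the change in iFoxC1 passed, at -1.28 ± 0.27, or 2.43-fold lower (adjusted p = 0.0200), and it was lost without either 24 h library of that subline (adjusted p = 0.0658 and 0.113). Leaving out 1 library at a time, the average call held in 5 of 17 runs, and without the iFoxC1 library at 0 h, which leaves iFoxC1 out, the change was -0.10 (adjusted p = 0.601), against -0.56 (0.00972) without that of iFoxL2. The average call was also lost without a filter on low counts (0.278) and in limma (0.150).

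Dppa3 (ENSMUSG00000046323.8, chr6:122626410-122630272, plus strand), also called Stella, marks the founders of the germline and protects the maternal genome from demethylation after fertilisation. Before Dox removal it was 31.7 CPM in iFoxC1, 20.3 in iFoxL2, 11.1 in iFoxP3, 6.99 in iFoxG1, and 3.21 and 4.07 in iFoxA1. At 24 h the values were 27.2 and 27.0 CPM in iFoxC1, 16.0 and 13.4 in iFoxG1, 12.4 and 7.43 in iFoxL2, 4.06 and 5.46 in iFoxP3, and 3.47, 4.19 and 7.27 in iFoxA1. The 24 h libraries lay above the 0 h value in iFoxG1, below it in iFoxC1, iFoxL2 and iFoxP3, and on both sides in iFoxA1. No change passed, on average (-0.19 ± 0.19, adjusted p = 0.459) or within a subline. The largest fitted changes were 1.07 ± 0.46 in iFoxG1 and -1.22 ± 0.43 in iFoxP3 (adjusted p = 0.223 and 0.130), and the latter passed without iFoxA1 replicate 3 at 24 h (0.0441). In the first library set alone, where only iFoxA1 has replicates, the average was -0.23 (adjusted p = 0.0239). The annotation also lists a Dppa3 pseudogene, and reads that fit both copies cannot be assigned with certainty.

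Tex101 (ENSMUSG00000062773.6, chr7:24668007-24676675, minus strand), a surface glycoprotein of male germ cells, was low at 0 h. It was 1.34 CPM in iFoxP3, 0.853 in iFoxC1, 0.703 in iFoxL2, 0.617 in iFoxG1, and 0.431 and 0.823 in iFoxA1 at that time. At 24 h the values were 5.06 and 7.46 CPM in iFoxC1, 3.02 and 4.41 in iFoxG1, 1.84 and 2.56 in iFoxP3, 2.49 and 0.502 in iFoxL2, and 0.893, 0.645 and 1.66 in iFoxA1. The iFoxC1 libraries were the highest, and 1 iFoxL2 library, replicate 2, stayed below its 0 h value. Tex101 rose by 1.602 ± 0.40 on average, or 3.04-fold (adjusted p = 0.0114), without a call in any subline. The largest fitted change was 2.87 ± 0.98 in iFoxC1 (adjusted p = 0.0995). This passed on leaving out either 24 h library of iFoxL2, for which no share of all genes is given.

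The sublines were next compared with each other. The test of a difference among the 5 changes passed for 0 of 9 members in edgeR, against 0.984% of all genes. At an unadjusted p under 0.05 it held for 5 of 9. No share of all genes is given at that level, so this count has no background beside it. DESeq2's likelihood ratio test passed 4 (Mael, Piwil2, Sycp3 and Dppa3), while limma on log2(TPM + 0.1) passed 0. The counts over all genes in DESeq2 and limma are given further below, with the other processing settings. In edgeR, Mael passed without iFoxA1 replicate 3 at 24 h (adjusted p = 0.0362) and where the fit held a term for the library set (0.0429), and Piwil2 without either 24 h library of iFoxL2. At 24 h the sublines differed in 4 of 9 members: Stk31 (adjusted p = 0.000985), Tdrd5 (0.00316), Dppa3 (0.00429) and Mael (0.00539), against 13.1% of all genes. The call of Stk31 was lost in limma (0.184). Ddx4 and Tex101 passed too on leaving out either 24 h library of iFoxL2, Sycp3 without its replicate 1, and Dazl without iFoxA1 replicate 3 (0.0223). Of the 17 runs that leave out 1 library, that without iFoxL2 replicate 1 called the most genes of all in this test. The same held for the difference among the changes. At 0 h it was the run without iFoxL2 replicate 2. A member gained in such a run is therefore not read as a result about that member. At 0 h, where 4 of 5 sublines have 1 library, 0 of 9 passed, against 0.494% of all genes. At an unadjusted p under 0.05 it held for 5, again with no share of all genes given. DESeq2 passed 3 and limma 0. Stk31 (adjusted p = 0.0522) and Dppa3 (0.0590) were nearest in edgeR. Both passed in 6 of the 17 runs that leave out 1 library, those without iFoxA1 replicate 3 at 24 h, without either 24 h library of iFoxL2, or without the 0 h library of iFoxG1, iFoxL2 or iFoxP3. Their adjusted p was then 0.0293 to 0.0322 for Stk31 and 0.0158 to 0.0414 for Dppa3. Piwil2 (0.126) passed at 0 h on leaving out either 24 h library of iFoxL2. With the term for the library set all 3 passed at 0 h, Stk31 at 0.0149, Dppa3 at 0.0248 and Piwil2 at 0.0428.

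Each subline was then set against the mean of the 4 others at 24 h, where 8 of 45 tests of members passed, against 4.75% of all gene and subline pairs. iFoxP3 was higher in Tdrd5 by 2.26 ± 0.25, or 4.78-fold (adjusted p = 0.00699), in a comparison that called 0.555% of all genes. iFoxG1 was higher in Mael by 1.23 ± 0.20, or 2.34-fold (adjusted p = 0.0114; 2.74% of genes). iFoxC1, with 3.69% of genes called, was higher in Dppa3 by 1.82 ± 0.25 (adjusted p = 0.00407) and in Stk31 by 1.16 ± 0.10 (0.000582), and lower in Tdrd5 by a difference of -1.77 ± 0.34 (0.0194). Both genes that were higher in iFoxC1 also had their highest 0 h value there. iFoxA1 was lower in Dppa3 (-1.23 ± 0.26, adjusted p = 0.0126), Mael (-1.17 ± 0.20, 0.00426) and Ddx4 (-0.60 ± 0.15, 0.0218), among 15.1% of all genes called. No member passed in iFoxL2, where 1.63% of genes were called. Leaving out 1 library of the subline in question at 24 h, replicate 1 or 2, ended 6 of these 8 calls: adjusted p was then 0.110 and 0.184 for Tdrd5 in iFoxP3, 0.152 and 0.162 for Mael in iFoxG1, 0.0564 and 0.0758 for Dppa3 in iFoxC1, and 0.209 and 0.0628 for Tdrd5 in iFoxC1. In iFoxA1 it was 0.0628 and 0.0685 for Dppa3, and 0.105 and 0.0972 for Ddx4. The other 2, Mael in iFoxA1 and Stk31 in iFoxC1, passed in each of the 17 runs with 1 library left out. Of these, Stk31 in iFoxC1 was lost in limma (1.18, adjusted p = 0.134), while Mael in iFoxA1 passed under all 8 other settings. For Piwil2, the test of a difference among the sublines at 24 h did not pass (adjusted p = 0.931). Its differences between 1 subline and the 4 others were -0.13 ± 0.13 to 0.15 ± 0.15.

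**Figure D4:**
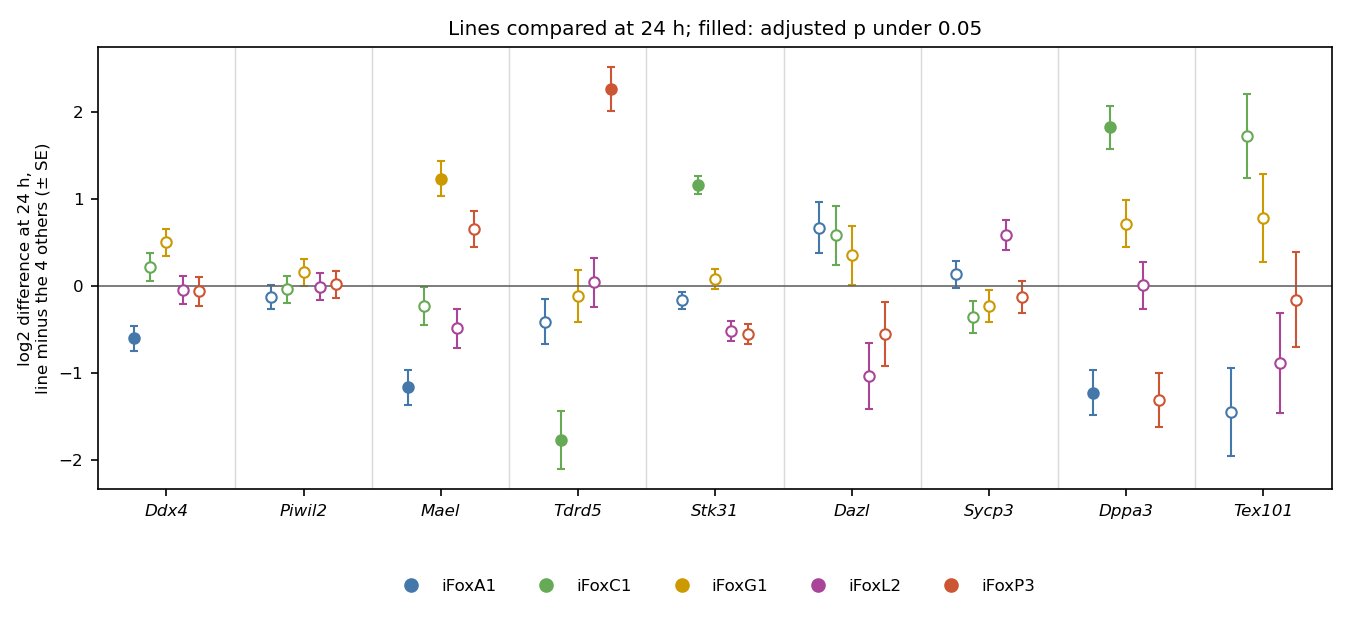
Log2 difference at 24 h (y axis, ± SE) between each subline and the mean of the 4 others, for each member, with filled circles for an adjusted p under 0.05. Tdrd5 is high in iFoxP3 and low in iFoxC1, Mael is high in iFoxG1 and low in iFoxA1, and the 5 values of Piwil2 lie near 0.

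Across the 17 libraries, the members did not move as 1 block. Described by Pearson's r of log2 CPM, the pairs most alike were Ddx4 with Piwil2 (r = 0.78), Ddx4 with Tex101 (0.74), Ddx4 with Mael (0.68), Mael with Tex101 (0.66) and Dppa3 with Stk31 (0.66). The most opposed were Tdrd5 with Stk31 (r = -0.71) and Sycp3 with Tex101 (-0.65). The libraries share their 0 h and 24 h split, the 5 sublines and the library sets, all of which enter these values. Among 12686 protein-coding genes of at least 1 CPM, the profile most like that of Ddx4 was Ddr1 (r = 0.97), then Pim2 (0.97), and for Piwil2 it was Hcfc1 (0.97) and Arid1a (0.96). Mael was most like Dysf (0.94) and Sfi1 (0.92), Tex101 like Bmp8b (0.94) and Emp3 (0.91), Stk31 like Ly6a (0.93) and Serpina3m (0.92), and Dazl like 1700013H16Rik (0.90) and Magea5 (0.89). Sycp3 was most like Padi2 (0.89) and Uggt1 (0.86), and Dppa3 like Ppp1r14a (0.84) and Scml2 (0.82). For Tdrd5 it was Tal2 (0.85) and Foxp3 (0.85), the latter being the gene that the iFoxP3 transgene carries.

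The transcripts behind the gene totals were mostly those of 1 annotated form. Mael-201 held 87.3 to 100% of the Mael counts per library, Piwil2-201 90.7 to 99.1%, Tex101-201 89.9 to 100% and Stk31-201 88.3 to 98.3%. Dppa3-201 held at least 99.6% of its gene's counts, and Dazl-201 79.3 to 97.8%. Ddx4-202 held all counts in 12 libraries. The shorter Ddx4-201 took counts in 5 libraries, all of iFoxL2 or iFoxP3, and was the larger one in iFoxP3 at 24 h replicate 2, with 57.5% of the counts against 0% in replicate 1. Sycp3 was split among 3 forms by library set: Sycp3-201 held 83.9 to 100% in the second set and 0 to 65.2% in the first. Tdrd5 was split between Tdrd5-201 and Tdrd5-204 with no steady share (each 0 to 100%). Only the gene sums were therefore compared. No other gene of the annotation overlapped an exon of a member on the same strand, and the libraries are strand-specific.

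Of 24 other genes of the piRNA pathway, 23 were tested; 8 rose and 1 fell in the average change, against 37.8% of all genes called (21.7% upward and 16.1% downward). Their median log2 change was 0.16, or 0.14 over the 22 with counts in every group, against 0.04 over all genes, and these shares and this median apply to each list that follows. Mov10l1, the helicase that feeds precursors into piRNA production, rose from 10.9 ± 3.07 (SD, n = 6) to 18.9 ± 3.96 CPM (n = 11), by 0.95 ± 0.07 (adjusted p = 2.03e-05). The changes differed among sublines (adjusted p = 0.0222): Mov10l1 rose by 1.43 in iFoxP3, 1.31 in iFoxL2, 1.12 in iFoxG1 and 0.98 in iFoxC1, while its change in iFoxA1 was -0.09 ± 0.12. iFoxA1 also had the smallest fitted changes of Ddx4 (1.00), Piwil2 (0.22) and Mael (-0.00156), for which the difference among sublines did not pass. The other members that rose on average did not share this. Tdrd5 had its smallest value in iFoxC1 (-0.22, against 0.76 in iFoxA1) and Tex101 in iFoxP3 (0.72, against 0.78). In this list, Tdrd12 had its highest value in iFoxA1 (0.45). Tdrd1, a Tudor protein that binds the PIWI protein MILI, rose by 2.72 ± 0.36 from a low level (0.142 to 1.5 CPM at 0 h, 1.29 to 5.69 at 24 h; adjusted p = 0.000435). Spocd1, which links piRNAs to DNA methylation, went from 0 to 0.0948 CPM at 0 h to 0.0508 to 0.649 CPM at 24 h, with 22 counts at most in any library, and no fold is given because 3 sublines had no count at 0 h. Morc1, a silencer of transposons in male germ cells, fell from 209 ± 43.8 to 91.8 ± 21.2 CPM, by 1.22 ± 0.17 on the log2 scale (adjusted p = 0.000565). Tdrd12 was at 73.6 ± 17.9 and 69.6 ± 12.3 CPM (adjusted p = 0.234). Tdrd6 did not pass the filter, with at most 7 counts in a library.

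Of 35 genes of meiosis and spermatocytes, 33 were tested; 7 rose and 5 fell, with a median of 0.31, against 37.8% of all genes called. The largest change was downward: Stra8, the gene that retinoic acid induces at entry into meiosis, fell from 28.1 ± 10.5 to 2.74 ± 0.65 CPM, by 3.22 ± 0.16 (adjusted p = 1.99e-06), and within each of the 5 sublines. All 11 libraries at 24 h held 1.78 to 3.87 CPM of Stra8, the 2 that stand apart included, against 16.5 to 42.4 at 0 h. Taf7l, a germ cell form of a general transcription factor subunit, rose from 2.73 ± 0.41 to 17.8 ± 7.85 CPM, by 2.73 ± 0.24 (adjusted p = 4.28e-05), also within each subline. Slc25a31, the testis form of the mitochondrial ADP/ATP carrier, rose by 1.70 ± 0.30 (adjusted p = 0.00209), and Hormad1, a protein of the meiotic chromosome axis like Sycp3, fell by 0.73 ± 0.13 (0.00225). Spata22 and Mcmdc2 did not pass (adjusted p = 0.901 and 0.873).

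Of 20 repressors of germline promoters, all tested, 10 rose and 3 fell, with a median of 0.28, against 37.8% of all genes called. The de novo DNA methyltransferases Dnmt3a and Dnmt3b rose by 1.33 ± 0.10 (adjusted p = 1.87e-05) and 1.47 ± 0.11 (2.22e-05). Dnmt3b went from 245 ± 76.9 to 637 ± 269 CPM, and its changes differed among sublines (adjusted p = 0.0244), with 2.95 in iFoxC1, 1.84 in iFoxP3, 1.63 in iFoxG1, 0.66 in iFoxL2 and 0.28 in iFoxA1. E2f6 rose by 0.76 ± 0.08 (adjusted p = 0.000142) and the histone H3 methyltransferase gene Ehmt1 by 0.50 ± 0.05 (0.000145). Uhrf1 and Atf7ip did not pass (adjusted p = 0.727 and 0.527).

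**Figure D5:**
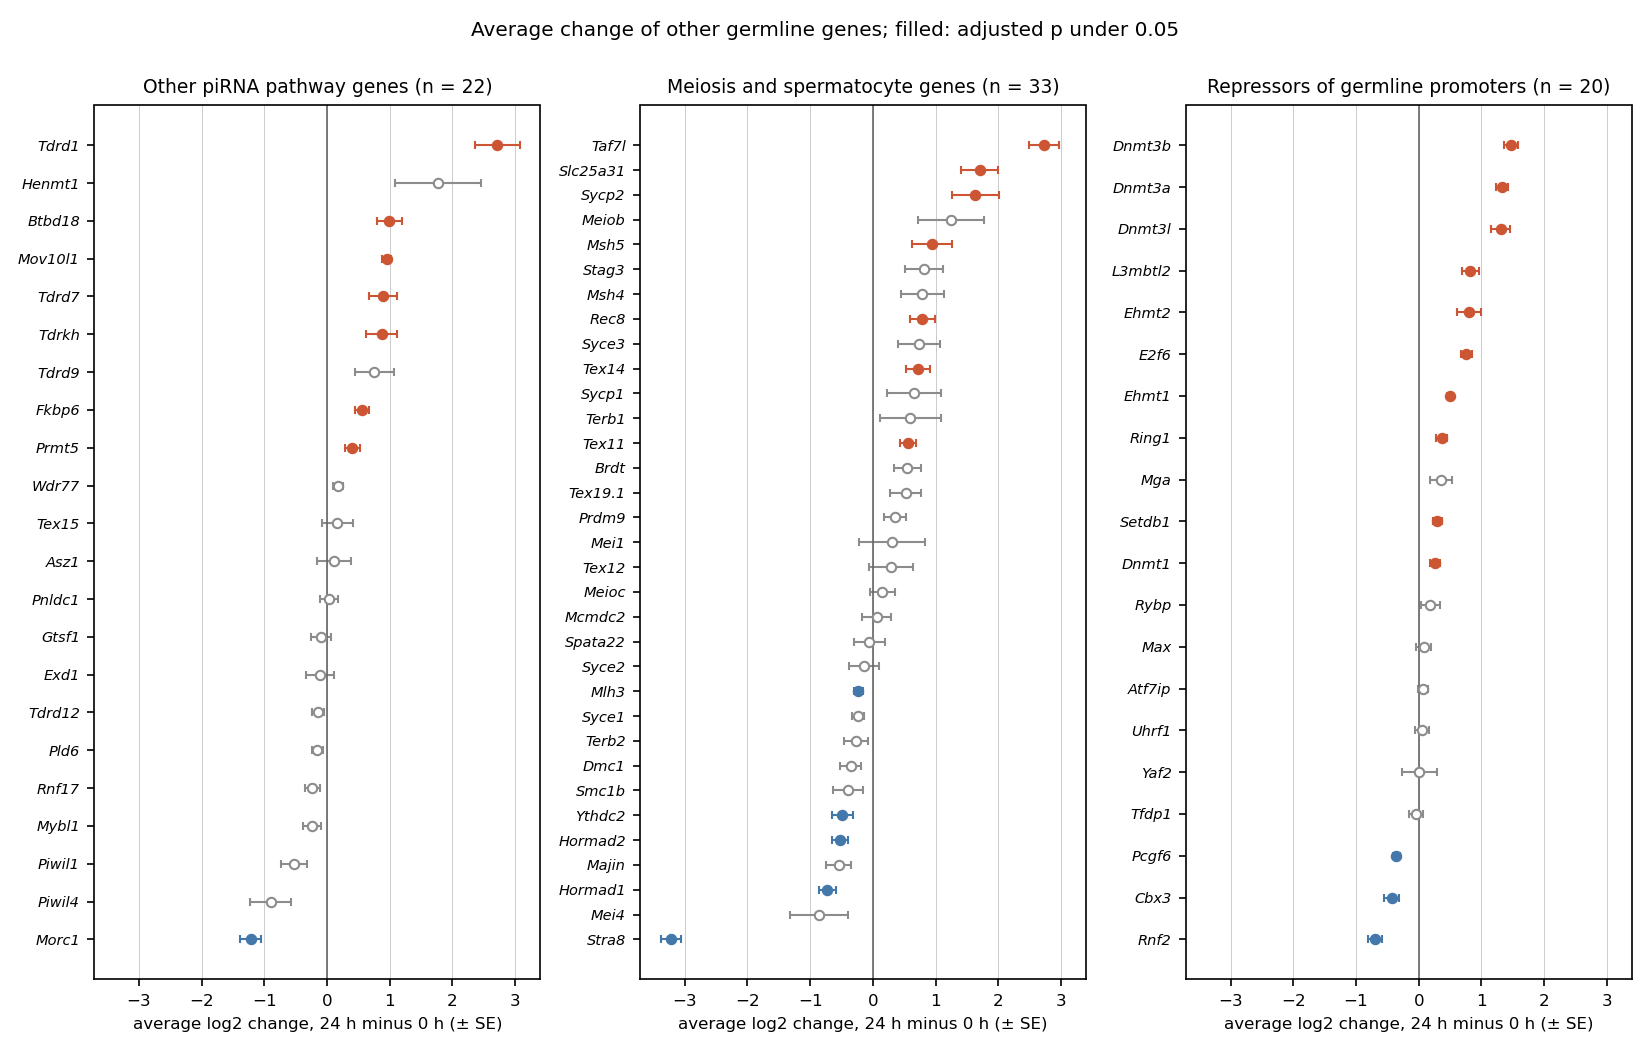
Average log2 change from 0 h to 24 h (x axis, ± SE) of the other piRNA pathway genes, the meiosis genes and the repressors that were tested and had counts in every group, in order of size, with filled circles for an adjusted p under 0.05 (red higher, blue lower). Tdrd1, Taf7l and Dnmt3b are at the top of their lists and Morc1, Stra8 and Rnf2 at the bottom.

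Markers of spermatids and oocytes, cells in which such genes are normally active, were mostly too low to test. Of 10 spermatid genes, 9 did not pass the filter, the protamine gene Prm1 had 0 counts in all libraries, and the list summed to 3.03 to 4.54 CPM at 0 h and 1.03 to 3.14 at 24 h; the tested one, Ldhc, fell by 1.04 ± 0.13 (adjusted p = 0.000303). Of 11 oocyte genes, 8 were not tested, among them Zp1, Zp2, Figla and Nobox with at most 12 counts in a library, while Zp3 fell by 1.19 ± 0.16 (adjusted p = 0.000501). The other 2 tested, named after their values were seen, did not pass: Gdf9 (1.05 ± 0.50, adjusted p = 0.124) and Sohlh2 (0.16 ± 0.16, 0.466). The median of the 3 was 0.16, or -0.52 over the 2 with counts in every group. The oocyte list summed to 65.7 to 93.2 CPM at 0 h and 44.5 to 93.7 at 24 h, most of it Sohlh2, with a mean of 55.3 CPM at 0 h and 62.7 at 24 h. Of 11 primordial germ cell factors, all tested, 4 fell and 0 rose, with a median of -0.56 (-0.57 over the 10 with counts in every group), against 16.1% of all genes called downward and a median of 0.04. Prdm14, a regulator of germ cell specification that ES cells also use, fell by 3.20 ± 0.70 (adjusted p = 0.00627), Ifitm3 by 1.32 ± 0.10 (1.77e-05), Kit by 1.87 ± 0.42 (0.00744) and Elavl2 by 0.58 ± 0.16 (0.0195). Nanos3 and Ifitm1 did not pass on average (adjusted p = 0.130 and 0.778). Within iFoxA1, 2 genes of this list rose and 3 fell (median -0.03), against 10.8% of all genes called there. Nanos3 fell in iFoxA1 by 2.10 ± 0.34 (adjusted p = 0.00437). Its values of -0.91 in iFoxL2, -0.48 in iFoxP3, 0.20 in iFoxG1 and 1.33 in iFoxC1 did not pass. The summed level of this list was 424 to 639 CPM at 0 h, 180 to 314 in 9 libraries at 24 h, and 458 and 478 in the 2 libraries that stand apart.

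Of 10 genes of the gonad's somatic cells, 7 were tested and 2 rose, with a median of 0.46 (0.44 over the 6 with counts in every group), against 0.04 over all genes. Wt1 went from 0.0474 to 1.84 CPM at 0 h to 1.09 to 28.9 at 24 h, a rise of 3.93 ± 0.34 (adjusted p = 4.30e-05), and Sox9 from at most 0.145 to between 0.0313 and 4.22 CPM, while Gata4 did not pass (adjusted p = 0.786). Nr5a1 and Hsd3b1, which define steroid-producing cells, had at most 4 and 0 counts in a library. Of 9 genes of 2-cell-like cells, a rare state of ES cultures in which some germline genes are active, 2 rose (Duxf3 and Tcstv1, both of multicopy families and under 1 CPM in each library), with a median change of 0.97 for the list, or 0.79 over the 5 with counts in every group. This list summed to 9.10 to 45.7 CPM at 0 h and 7.29 to 51.1 at 24 h. Of 9 fibroblast genes, with a median of 0.40 (0.09 over the 7 with counts in every group), 2 rose, Thy1 by 0.83 ± 0.12 (adjusted p = 0.000571) and Twist1 by 1.29 ± 0.25 (0.00323), while Col1a2 and Prrx1 did not pass (0.686 and 0.989). The part of these lists in the changes of the members was not tested, and in bulk RNA more cells of a type and more RNA per cell cannot be told apart.

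The 12 naive pluripotency genes, of which 6 fell and 0 rose (median -1.06), moved with time and with the 2 libraries that stand apart. Nr5a2 fell by 2.12 ± 0.27 (adjusted p = 0.000337), Nanog by 2.40 ± 0.39 (0.00123), Tet2 by 1.10 ± 0.19 (0.00194) and Zfp42 by 1.27 ± 0.28 (0.00649), while Fgf4 did not pass (0.979). Of the 6 ES cell markers (median 0.20), Utf1 (1.46 ± 0.19, adjusted p = 0.000398) and Lin28a (0.52 ± 0.08, 0.000866) rose, and Dppa4 did not pass (0.140). Without the 2 libraries that stand apart, the average change was 1.63 for Ddx4, 0.75 for Mael, 0.96 for Tdrd5, 1.66 for Tex101 and -0.41 for Sycp3.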

How the data were processed

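RNA of the 17 libraries was quantified per transcript with Salmon 1.4.0, per the submitters' processing notes, which also name mm10 and DESeq2 1.30.1. The authors deposited estimated counts and TPM values per transcript, with no further normalization stated in the sources used here. Of 137271 transcripts, 137225 matched GENCODE M21 and were summed per gene; the other 46 held at most 0.0133% of a library's counts. Gene sums were rounded and tested with edgeR 4.0.16 (R 4.3.3): TMM factors, filterByExpr with a minimum count of 10, 1 mean for each of 10 groups, 7 residual degrees of freedom, and the quasi-likelihood test with Benjamini-Hochberg adjustment over 19819 genes at 0.05. CPM use the TMM-scaled totals. The code was tested on simulated data. The 9 members, the 11 other gene lists, the rules and the tests were chosen with earlier results of these data known. Named in each list were up to 4 genes with the smallest adjusted p in the average change, and up to 2 whose p was lower in the difference among changes. For each member the 2 protein-coding genes of at least 1 mean CPM with the highest correlation were named. Alternatives were DESeq2 1.42.0, limma 3.58.1 on log2(TPM + 0.1), RLE factors, no filter, the library set as a term, the first set alone, leaving out the 2 libraries that stand apart, a replicate block, and leaving out each library. The transgene level of iFoxG1 is not reported here.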

Additional observations from a re-analysis of the deposited data

Results flagged for a closer look

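The change from 0 h to 24 h differed among the 5 sublines for 4 genes named from the other lists, by edgeR's test of the difference, out of 134 tested and against 0.984% of all genes. For Mov10l1 (adjusted p = 0.0222) it was -0.09 in iFoxA1 and 0.98 to 1.43 in the other 4. For the DNA methyltransferase gene Dnmt3b (adjusted p = 0.0244) it ranged from 0.28 in iFoxA1 to 2.95 in iFoxC1. Ifitm1, a membrane protein gene of early germ cells (adjusted p = 0.0432), rose by 1.51 in iFoxA1 and had values of 0.68 in iFoxL2, -0.65 in iFoxP3, -0.87 in iFoxG1 and -0.97 in iFoxC1. For Wt1, a transcription factor of the gonad's somatic cells (adjusted p = 0.0492), it ranged from 0.28 in iFoxA1 to 6.22 in iFoxC1. The value of 6.22 starts from 0.0474 CPM in the 1 library of iFoxC1 at 0 h, the lowest of the 5 sublines. It does not mark the highest level reached. At 24 h the mean of Wt1 was 3.91 CPM in iFoxC1, against 13.6 in iFoxL2, 21.9 in iFoxP3 and 27.7 in iFoxG1. Only iFoxA1 was below iFoxC1 at that time. The calls of these 4 genes rest on 0 h groups that hold 1 library in 4 of 5 sublines. On leaving out 1 library they held in 7 of 17 runs for Mov10l1 and Ifitm1, 6 for Dnmt3b and 4 for Wt1, with an adjusted p of up to 0.185, 0.248, 0.133 and 0.233. Of the 8 other settings, 7 kept the call of Dnmt3b and Ifitm1, 6 that of Mov10l1 and 5 that of Wt1. All 4 were lost in limma, with an adjusted p of 0.193, 0.118, 0.622 and 0.245 in that same order.

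Among the members, Sycp3 had, in CPM, all 24 h libraries above the 0 h value in iFoxL2 and below in the other 4 sublines. In TPM they lay on both sides of the 0 h value in iFoxG1 (8.93 at 0 h, 10.5 and 6.76 at 24 h). The same held in iFoxP3 (9.82 at 0 h, 12.1 and 6.80 at 24 h). The difference among its changes did not pass (adjusted p = 0.209). Dppa3 had them above in iFoxG1 and below in iFoxC1, iFoxL2 and iFoxP3, and the difference did not pass either (adjusted p = 0.228). The share of all genes with such mixed patterns is not given. In DESeq2 the difference passed for both genes (adjusted p = 0.0329 for Sycp3 and 0.0205 for Dppa3).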

How the results depend on the processing

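The number of members called in the average change was 6 to 9 under the 8 other settings and 5 to 7 on leaving out 1 library, against 7. Calls of members within sublines (13) numbered 30 in the first library set alone, 23 without the 2 libraries that stand apart and 2 in limma. For the difference among the 5 changes (0), DESeq2 gave 4, the library set as a term 1, the first set alone 9, the set without the 2 libraries 5 and the replicate block 1. For the difference at 24 h (4), these were 7 in DESeq2, 8 in the first set and 7 without the 2 libraries. For the difference at 0 h (0), DESeq2 gave 3, no filter 1, the set term 3, the first set 6, the set without the 2 libraries 5 and the block 2. For each subline against the others at 24 h (8), DESeq2 gave 13, the first set 25, the set without the 2 libraries 20, the block 13 and limma 4. Leaving out 1 library gave 9 to 16 calls within sublines, 0 to 1 for the difference among changes, 4 to 7 at 24 h, 0 to 3 at 0 h and 6 to 13 for each subline against the others. Over all genes, the average change (7501) gave 12250 in the first set and 4600 in limma. The difference among changes (195) gave 1632 in DESeq2, 953 with the set term, 9717 in the first set, 4106 without the 2 libraries, 617 with the block and 27 in limma. In the same order, the difference at 24 h (2591) gave 4442, 4881, 11306, 7284, 4236 and 848, and the difference at 0 h (98) gave 1253, 697, 10469, 3801, 315 and 21. Leaving out 1 library gave 6096 to 8451 genes in the average, 15 to 1030 for the difference among changes, 1371 to 4676 at 24 h and 2 to 487 at 0 h. The cause of these shifts was not tested. The first set alone leaves 2 residual degrees of freedom. No share of all gene and subline pairs is given for the calls within sublines or each subline against the others under other settings. Those counts of members therefore have no background beside them. RLE factors changed no member's call.

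A change of sign occurred only for values that did not pass. On leaving out 1 library the average of Dppa3 ranged from -0.515 to 0.063, being above 0 without the 0 h library of iFoxL2 (0.0103) or of iFoxP3. Mael in iFoxA1 was 0.0176 without a filter and -0.30 to 0.19 on leaving out 1 library. Tdrd5 in iFoxC1 ranged from -0.90 to 0.18, and Tdrd5 in iFoxL2 was -0.13 in limma. Dazl in iFoxC1 was 0.0747 with the set term. Tex101 in iFoxL2 ranged from -0.48 to 1.83.

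Replicate numbers did not pair the libraries: same-numbered libraries deviated together with r from -0.641 to 0.84, above 0.1 in 16 of 30 pairs. All 4 values below -0.1 came from iFoxA1 replicate 2 at 24 h, a first-set library, against the second-set replicate 2 of the other sublines. By library set, libraries at 24 h deviated together with r from 0.545 to 0.84, and the test used throughout has no term for the set. With the replicate block the members called in the average numbered 6, Sycp3 being lost (-0.35, adjusted p = 0.0652). Depth limits Tdrd5 and Tex101 most, which had as few as 9 counts in a library.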
